A study of Mus musculus with 16 samples.

Results

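The genes described here are 50 ribosome biogenesis factors, the proteins that make ribosomal RNA and assemble it into ribosomes. They were taken from a list of 50 symbols, each matched to the non-control probes that carry the symbol or an older synonym (Nol5a for Nop56, Josd3 for Taf1d). All 50 were on the array, 15 of them under an older name, with 83 probes in total and more than 1 probe for 24 genes. They are 50 of the 18403 genes tested. The list was not chosen by a value measured on these arrays, although earlier results of the same arrays were known when it was drawn up.

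RNA came from CD8 T cells of female C57BL/6N mice aged 7 weeks. Flow cytometry gated on CD8 and Thy1.2 separated a fraction with little surface CD44, here naive, from a fraction with much of it, here memory phenotype. CD44-high cells of unimmunised mice are defined by this marker alone, not by a known earlier infection. Both spent 4 h in culture. Resting cells had medium only, and stimulated cells also had 10 ng/mL of PMA, which switches on protein kinase C, and 500 ng/mL of ionomycin, which lets calcium in, so that signalling starts below the T cell receptor. Crossing cell type with culture gives 4 groups (naive or memory, resting or stimulated), with 4 single-colour arrays each and 16 in all. Sorting and culture were repeated on 4 separate occasions, per the series' design text.

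A ribosome begins in the nucleolus, where RNA polymerase I copies the ribosomal DNA into a long precursor. Small nucleolar ribonucleoproteins (snoRNPs) modify that precursor, and separate sets of processing factors cut it and fold it into the small and the large subunit. The finished subunits are exported and meet on messenger RNA. Lymphocytes at rest are small cells with little nucleolar activity, and enlargement of the nucleolus is a classic sign of their activation.

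Each level is a log2 signal minus the log2 of that array's 75th percentile, so a step of 1 is a doubling. A level belongs to its probe and was not set against the level of another probe. The 75th percentiles lay between 504.3 and 678.0 intensity units, 59.3% to 66.5% of the spots of an array were well above background, and Pearson's r across probes between replicates of a group was 0.9784 to 0.9953. Each group occupied 1 slide and 1 scan of its own, so that group and slide cannot be told apart. On each slide the replicate number was also the array position, so replicate number and position cannot be told apart either. A marker is called above background in a group if it was well above it on at least 1 of the 4 arrays. The 10 T cell markers, Cd3e, Cd8a and Thy1 among them, were above background in every group. They summed to between 361 and 556 times the 75th percentile. The 12 markers of monocytes, macrophages or neutrophils, of which 11 were above background in naive stimulated cells and 12 in the other groups, summed to 8.9 to 15.2 in naive resting, 14.4 to 23.2 in memory resting, 1.71 to 3.22 in naive stimulated and 2.89 to 4.47 in memory stimulated cells. The 5 tested B cell markers summed to 1.64 to 2.21, 1.32 to 1.61, 0.224 to 0.412 and 0.199 to 0.276 in the same order of groups. The 7 NK cell markers summed to 1.62 to 2.49, 8.83 to 12, 2.21 to 3.2 and 7.69 to 8.9, higher in both memory groups, and 5, 7, 6 and 7 of them were above background. The 7 dendritic cell markers summed to 1.88 to 8.49, 5.21 to 9.7, 4.8 to 9.6 and 4.88 to 7.32, and those of CD4 T cells and of erythrocytes or platelets to at most 0.308 and 0.302 on any array. Their part in the results was not tested, and in bulk samples fewer cells of a type and less RNA per cell cannot be told apart.

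The promoters of the 50 genes were read first. RefSeq promoter windows of build GRCm38.p6, from 250 bases before to 50 after the annotated start, were found for 43 of the 50 genes (47 windows). The E-box CACGTG, the site bound by Myc with Max and by related proteins, reads the same on both strands. It was present in 10 of the 43 genes (23.3%), against 8.09% of the 27025 genes with a window and 11.1% of the 11357 of those tested on the arrays. The other 33 genes with a window had none. The 11 matches are printed here with their surroundings, to show where in the promoter they sit. Each run is 30 bases on the strand of the gene, 5′ to 3′, with the E-box in capitals.

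Rrn3, chr16:13780472-13780501, plus strand, centred 212 bases before the start: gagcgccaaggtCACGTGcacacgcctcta
Rrn3, chr16:13780639-13780668, plus strand, 45 bases before the start: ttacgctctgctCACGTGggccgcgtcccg
Imp4, chr1:34439696-34439725, plus strand, 118 bases before the start: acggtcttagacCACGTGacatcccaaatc
Utp18, chr11:93885769-93885798, minus strand, 17 bases before the start: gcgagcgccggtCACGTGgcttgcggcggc
Wdr43, chr17:71616220-71616249, plus strand, 20 bases after the start: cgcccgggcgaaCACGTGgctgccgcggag
Tsr1, chr11:74898092-74898121, plus strand, 27 bases after the start: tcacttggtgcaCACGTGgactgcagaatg
Pno1, chr11:17211540-17211569, minus strand, 40 bases after the start: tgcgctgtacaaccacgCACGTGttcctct
Nop2, chr6:125131811-125131840, plus strand, 57 bases before the start: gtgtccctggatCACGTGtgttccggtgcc
Pes1, chr11:3963965-3963994, plus strand, 5 bases after the start: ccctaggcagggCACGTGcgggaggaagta
Nle1, chr11:82908355-82908384, minus strand, 26 bases after the start: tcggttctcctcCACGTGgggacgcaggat
Grwd1, chr7:45830740-45830769, minus strand, 37 bases after the start: aagggccggagtcgCACGTGtgaaaccgga

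Rrn3 was the only one of the 43 genes with 2 matches. Of the 11 matches, 6 (54.5%) lay in the first 50 bases after the start, the part of the window that held 16.2% of the matches over all windows. The genes with a match belong to RNA polymerase I transcription (1 of 7 genes with a window), the small subunit (5 of 14) and the large subunit (4 of 15). None of the 4 snoRNP genes or 3 nucleolar chaperones with a window had one. The noncanonical E-box CACGCG, read on both strands like the other motifs, was present in 11 of 43 (25.6%), against 10.5% of all genes and 18.1% of those tested. The core of ETS family sites, CCGGAAG, was present in 15 (34.9%), against 9.93% and 17.9%, and the cyclic AMP response element TGACGTCA in 2 (4.65%), against 2.03% and 3.28%. In these windows no match of a motif shared a base with a match of another. Of 102 other ribosome biogenesis genes with a window, from the pathway lists described below, 14.7% had CACGTG and 34.3% CACGCG. In the same genes 40.2% had CCGGAAG and 3.92% TGACGTCA. A match describes these letters in this window and no more.

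Stimulation raised all 50 ribosome biogenesis factors in naive cells and all 50 in memory cells (limma with Benjamini-Hochberg adjustment over all genes, adjusted p of 0.05 or less). Of all 18403 genes tested, 36.7% were called higher and 32% lower in naive cells, and 30.1% higher and 40.8% lower in memory cells. The median change of the 50 was 2.63 on the log2 scale in naive and 2.94 in memory cells, while the medians of all genes were 0.11 and -0.21. Folds ran from 2.3 (Npm1) to 25.7 (Rrp1b) in naive cells and from 1.98 (Npm1) to 25.3 (Rrp1b) in memory cells. The rise was at least 2-fold for 50 genes in naive and 49 in memory cells, against 21.2% and 18% of all genes, and at least 8-fold for 16 and 23, against 2.36% and 2.43%.

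Stimulated and resting groups did not overlap for any of the 50 genes in either response: each gene's lowest stimulated array lay above its highest resting array. The same held for 31.6% of all genes in naive and 27.7% in memory cells. The largest adjusted p of limma over the 50 was 0.000256 in naive and 0.000292 in memory cells, both for Npm3. Taken array by array, the median level of the 50 genes was 2.00 to 2.36 on naive resting, 1.72 to 2.12 on memory resting, 4.60 to 4.73 on naive stimulated and 4.51 to 4.79 on memory stimulated arrays. The resting arrays thus spread more widely than the stimulated ones. Counted by probe, 83 of 83 rose in naive and 82 of 83 in memory cells, and none fell. The exception was 1 of 4 probes of Rrp1b, whose change was 0.87 in naive cells (adjusted p over probes = 0.000384) and 0.27 in memory cells (adjusted p over probes = 0.184).

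**Figure D1:**
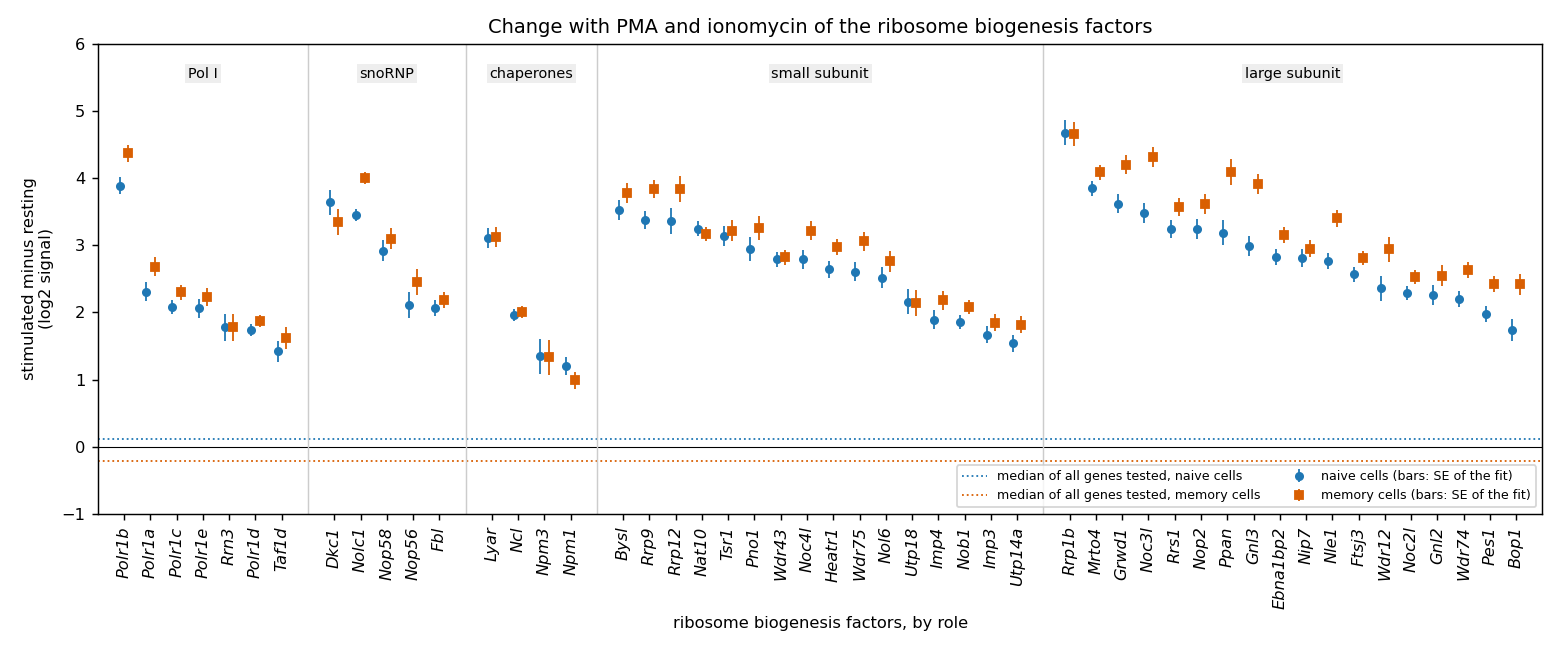
Change with stimulation of each of the 50 genes (stimulated minus resting, log2 signal) in naive cells (circles) and memory cells (squares), by role, with the SE of the fit as bars and the median of all genes tested as dotted lines. Every point lies above both dotted lines, from 0.99 for Npm1 in memory cells to 4.68 for Rrp1b in naive cells.

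Transcription by RNA polymerase I is represented by 7 genes, with median changes of 2.06 in naive and 2.23 in memory cells. Polr1b, the second largest subunit of the enzyme, changed most. Its level (probe at chr2:128866987-128867046, plus strand, build mm7) was 0.29, 0.28, 0.48 and 0.72 on the naive resting arrays and 4.40, 4.34, 4.40 and 4.18 on the naive stimulated ones. In memory cells it went from -0.32, -0.02, 0.10 and 0.19 to 4.24, 4.26, 4.49 and 4.43. All 8 stimulated arrays stood far above all 8 resting ones, and the 4 memory resting arrays lay below the 4 naive resting ones. The changes were 3.89 ± 0.13 (SE, 14.8-fold, adjusted p of limma = 2e-12) in naive and 4.37 ± 0.13 (20.7-fold, 6.83e-13) in memory cells.

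The largest subunit, Polr1a, rose 4.95-fold in naive and 6.41-fold in memory cells. Polr1c and Polr1d, a pair of subunits shared with RNA polymerase III, rose 4.24- and 3.35-fold in naive cells, and Polr1e, a subunit that works at initiation and elongation, 4.17-fold. Taf1d, a subunit of the selectivity factor SL1, had the smallest change of this role in both cell types. It measured 2.27, 2.75, 2.68 and 2.80 on naive resting and 3.85, 4.19, 4.12 and 4.01 on naive stimulated arrays. Its memory arrays read 1.93, 2.27, 2.23 and 2.57 at rest and 3.60, 3.92, 4.10 and 3.87 after stimulation. The groups did not overlap, and the changes were 1.42 ± 0.16 (adjusted p of limma = 9.85e-07) and 1.62 ± 0.16 (2.13e-07).

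Rrn3, the initiation factor that makes the polymerase competent to start and the gene with 2 E-boxes above, rose by the same amount in both cell types. Its naive arrays (probe at chr16:13361176-13361235, plus strand, mm7) read 1.30, 1.95, 1.82 and 2.43 at rest and 3.40, 3.70, 3.71 and 3.80 stimulated. Its memory arrays read 1.21, 1.61, 1.52 and 1.83 at rest and 3.06, 3.43, 3.48 and 3.34 stimulated. The resting arrays spread more widely than the stimulated ones, and those of the cell types overlapped. The change was 1.78 ± 0.20 in each, with an interaction of 0.01 ± 0.28.

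The snoRNP proteins and their assembly factors (5 genes) had median changes of 2.92 and 3.1. Dkc1, the pseudouridine synthase of box H/ACA snoRNPs and of telomerase, had the largest change in naive cells. It measured -1.09, -0.71, -0.65 and -0.03 on naive resting and 2.88, 3.01, 3.14 and 3.06 on naive stimulated arrays. Memory cells gave -0.92, -0.59, -0.66 and -0.14 at rest and 2.59, 2.84, 2.79 and 2.86 stimulated. Stimulated arrays lay close together in each cell type, while resting ones were spread out. The change was 3.64 ± 0.19 (12.5-fold) in naive and 3.35 ± 0.19 (10.2-fold) in memory cells.

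Nolc1, a nucleolar phosphoprotein that chaperones snoRNPs, was among the tightest of the 50. It read 2.22, 2.24, 2.32 and 2.28 on naive resting arrays and 1.66, 1.72, 1.83 and 1.87 on memory resting arrays, with no overlap. Stimulated naive arrays read 5.82, 5.70, 5.77 and 5.57 and stimulated memory arrays 5.79, 5.75, 5.78 and 5.78, which overlapped fully. Fbl, the methyltransferase of box C/D snoRNPs, rose 4.16- and 4.53-fold, and its partners Nop56 and Nop58 rose 4.33- and 7.58-fold in naive cells.

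Nucleolar chaperones and organisers (4 genes) had the lowest medians of the 5 roles, 1.66 in naive and 1.67 in memory cells. Npm1, nucleophosmin, an abundant nucleolar histone chaperone, measured 7.10, 6.98, 6.88 and 7.21 on naive resting and 8.08, 8.33, 8.26 and 8.32 on naive stimulated arrays. Its memory arrays read 6.92, 7.04, 7.09 and 7.50 at rest and 7.92, 8.10, 8.31 and 8.17 stimulated. No array overlapped, and the gap between resting and stimulated arrays was narrower in memory than in naive cells. Its changes were 1.20 ± 0.13 (adjusted p of limma = 9.92e-07) and 0.99 ± 0.13 (8.52e-06). A second probe of Npm1, also well above background on every array, gave 1.16 in naive and 1.52 in memory cells, the opposite order. Processed copies of Npm1 exist elsewhere in the genome, and either probe may read some of them.

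Npm3, a related chaperone, had 1 resting array per cell type that stood above the rest. Naive resting arrays read 2.93, 3.01, 2.98 and 4.08 and naive stimulated arrays 4.64, 4.75, 4.47 and 4.54. Memory resting arrays read 2.65, 3.05, 2.79 and 3.72 and memory stimulated arrays 4.16, 4.54, 4.63 and 4.18. The high resting array was replicate 4 in both cell types, and it still lay below every stimulated array. The changes were 1.35 ± 0.26 and 1.33 ± 0.26, the widest SE of the 50 genes. Ncl, nucleolin, rose 3.89- and 4.02-fold, and Lyar, a nucleolar zinc finger protein of growing cells, rose 8.65- and 8.76-fold.

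Small subunit factors (16 genes) had median changes of 2.71 and 3.02, with a range of 1.54 to 3.52 in naive cells. The largest change in naive cells was that of Bysl, a late assembly factor, at 3.52 ± 0.15 (11.5-fold), followed by Rrp9, a protein of the U3 snoRNP, at 3.38 ± 0.13 (10.4-fold). Nat10, the acetyltransferase that modifies the small subunit RNA, rose 9.55-fold in naive and 9.0-fold in memory cells. The U3 proteins Imp3 and Imp4 rose 3.18- and 3.70-fold in naive cells. Nob1, the nuclease that makes the last cut in the small subunit RNA, rose 3.62-fold and its partner Pno1 7.75-fold.

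The smallest change of this role was that of Utp14a, a helicase activator of the small subunit processome. It measured -0.58, -0.65, -0.67 and -0.82 on naive resting and 1.06, 0.69, 0.91 and 0.78 on naive stimulated arrays. Memory arrays read -0.48, -0.55, -0.69 and -0.86 at rest and 1.48, 1.24, 0.99 and 0.98 stimulated. The groups were apart in both cell types, with changes of 1.54 ± 0.13 (adjusted p of limma = 5.63e-08) and 1.82 ± 0.13 (8.57e-09). A second probe of Utp14a gave 2.06 and 2.13, and mice carry a retrocopy of this gene, Utp14b, that either probe may read.

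Large subunit factors (18 genes) had median changes of 2.82 in naive and 3.28 in memory cells, and held the gene with the largest change of the 50. Rrp1b, a nucleolar protein of large subunit processing, measured -0.75, -1.18, -1.30 and -1.60 on naive resting and 3.59, 3.48, 3.48 and 3.34 on naive stimulated arrays (probe at chr17:30248201-30248260, plus strand, mm7). Memory arrays read -0.79, -1.05, -0.87 and -1.58 at rest and 3.66, 3.67, 3.37 and 3.65 stimulated. Resting arrays lay below and stimulated arrays above the array's 75th percentile throughout, with changes of 4.68 ± 0.18 (adjusted p of limma = 1.04e-11) and 4.66 ± 0.18 (1.07e-11).

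Mrto4, which holds the place of a ribosomal stalk protein during assembly, had the third largest estimate of the 50 in naive cells, after Rrp1b and Polr1b. It read 1.17, 1.27, 1.18 and 1.54 on naive resting and 5.08, 5.09, 5.20 and 5.20 on naive stimulated arrays. Memory arrays read 0.89, 0.96, 0.95 and 1.26 at rest and 5.09, 5.17, 5.10 and 5.06 stimulated. The changes were 3.85 ± 0.11 (14.5-fold) and 4.09 ± 0.11 (17-fold). The Pes1, Bop1 and Wdr12 proteins form a complex that matures the large subunit, and their genes rose 3.95-, 3.34- and 5.14-fold in naive and 5.40-, 5.34- and 7.66-fold in memory cells. Nop2, a methyltransferase of the large subunit RNA, rose 9.45-fold in naive and 12.3-fold in memory cells, and Rrs1, which brings in the 5S RNA particle, 9.45- and 11.9-fold.

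**Figure D2:**
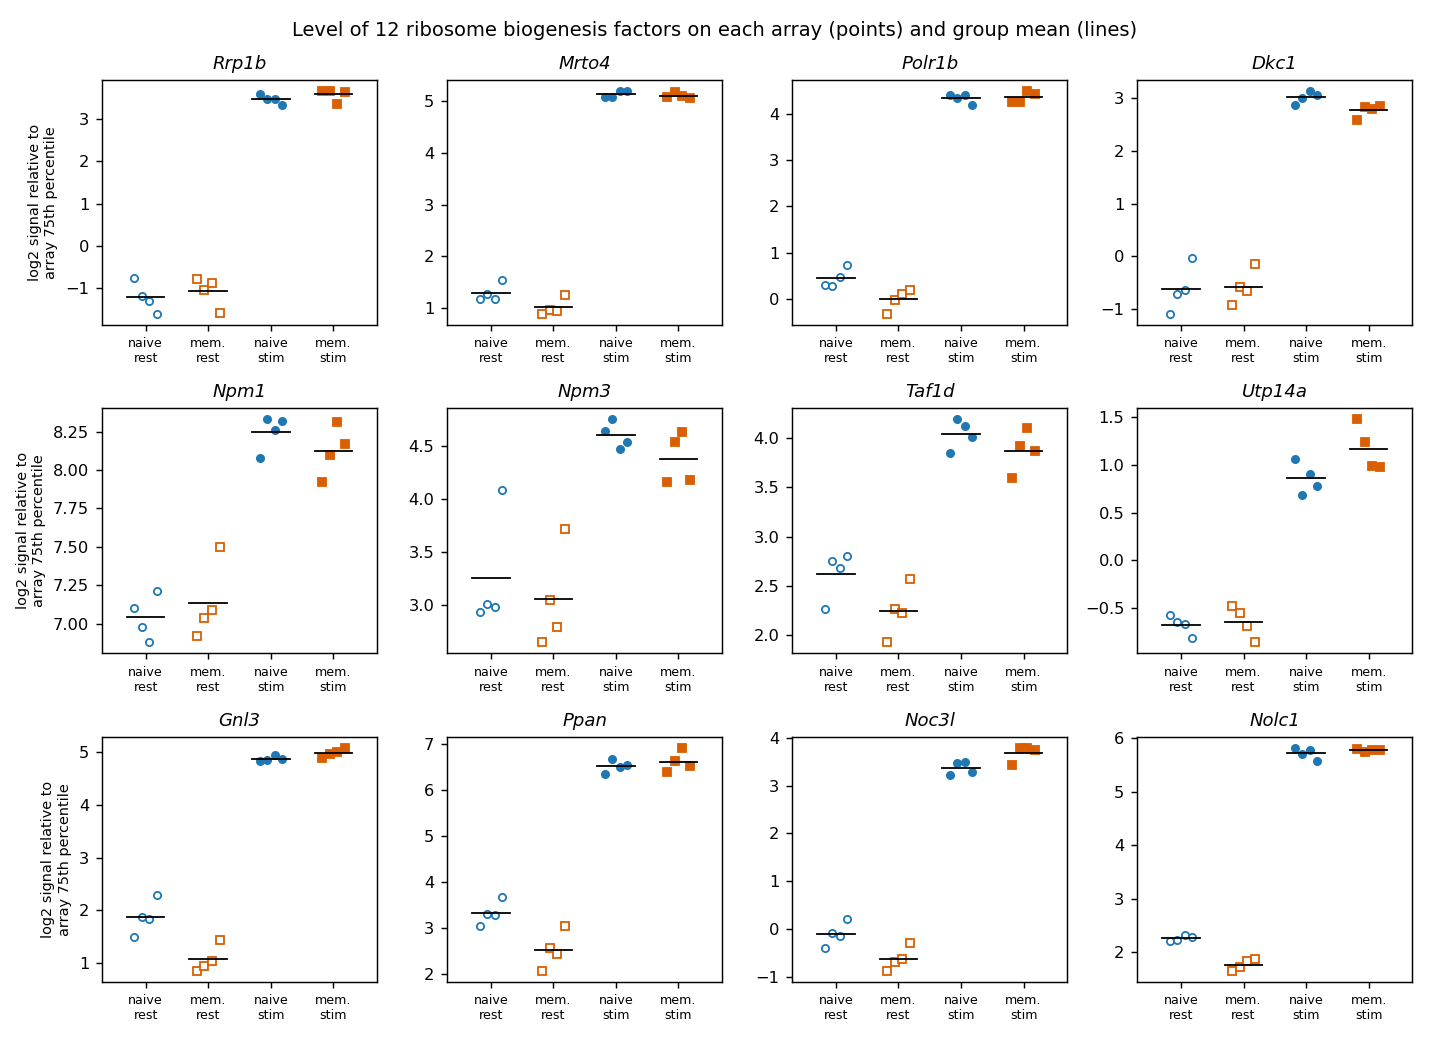
Level of 12 of the genes on each of the 16 arrays (log2 signal against the 75th percentile of that array; circles naive, squares memory phenotype, open resting, filled stimulated; lines are group means, n = 4). In each panel the 8 stimulated arrays lie above the 8 resting ones, Npm1 and Npm3 with the smallest gaps, and the memory resting arrays of Nolc1 and Gnl3 lie below the naive resting ones.

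In resting cells 9 of the 50 (18%) were lower in memory than in naive cells and none was higher (limma, adjusted p of 0.05 or less), against 7.47% of all genes lower and 13.8% higher. The estimate was below 0 for 44 of the 50, the median was -0.26, and the median of all genes was -0.01. Of the 9, 7 were large subunit factors, and the others were Polr1b and Nolc1. These counts rest on a single probe for each gene. A second probe was called lower for Nop56 (-0.51, adjusted p of limma over probes = 0.00375), Noc2l (-0.38, 0.0196) and Polr1a (-0.47, 0.0305). These probes were well above background on every array, and the probes used for these genes were not called. The memory resting arrays lay wholly below the naive ones for 7 of the 50, against 9.4% of all genes.

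Gnl3, nucleostemin, a nucleolar GTPase of proliferating cells (probe at chr14:28443338-28443397, minus strand, mm7), measured 1.49, 1.88, 1.84 and 2.30 on naive resting arrays and 0.86, 0.95, 1.05 and 1.44 on memory resting arrays. The groups did not overlap. The difference was -0.80 ± 0.15 (1.75-fold lower in memory cells, adjusted p of limma = 0.00166).

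Ppan, which binds the large subunit precursor, measured 3.04, 3.32, 3.28 and 3.68 in naive and 2.08, 2.56, 2.45 and 3.04 in memory resting cells. The groups did not overlap, with a gap at 3.04 smaller than the rounding, and the difference was -0.80 ± 0.19 (adjusted p of limma = 0.00633). Grwd1, a histone-binding factor of the nucleolus, measured 0.63, 0.64, 0.74 and 0.95 against -0.14, 0.16, 0.21 and 0.58, without overlap (-0.54 ± 0.14, adjusted p of limma = 0.0131). Noc3l, part of a complex that moves large subunit precursors out of the nucleolus, measured -0.39, -0.09, -0.14 and 0.20 against -0.87, -0.70, -0.63 and -0.29. One memory array lay inside the naive range, and the difference was -0.52 ± 0.15 (adjusted p of limma = 0.0219). The other calls were Nolc1 (-0.50 ± 0.09), Bop1 (-0.50 ± 0.16), Polr1b (-0.45 ± 0.13), Wdr74, a factor of late nuclear processing (-0.40 ± 0.12), and Nle1, a cofactor of the Mdn1 ATPase (-0.35 ± 0.12).

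Most of these calls stood close to the threshold, and the resting arrays of 1 group differed among themselves. Naive resting replicate 4 was the highest of its group for 39 of the 50 genes and memory resting replicate 4 for 42. Memory resting replicate 1 was the lowest for 41. A replicate number is also a position on the slide. Over all 18403 genes the main fit called 1375 lower. Without memory resting replicate 4, the number of the 50 called lower was 20 (1504 of all genes). It was 19 without naive resting replicate 1 (1926). It was 4 without memory resting replicate 1 (851 of all genes) and 4 without memory resting replicate 2 (968). Without naive resting replicate 4 it was also 4 (1130). With the replicate number as a block it was 19, against 2409 of all 18403 genes. With only the resting arrays in the fit it was 3 (958 of all genes), and under normexp background correction 0 (103). That correction failed on 3 stimulated arrays, which share the estimate of the spread. With those fits repaired the count was 12 (1787 of all genes), though without Polr1b (-0.24, adjusted p of limma = 0.162) and Nle1 (-0.22, 0.178). Gnl3, Ppan, Grwd1 and Nolc1 remained called whichever of the 16 arrays was left out. A second probe of Polr1b was not well above background on any resting array and on only 2 of 4 memory stimulated arrays, so it gives no value for this difference or for those that follow. Genes of other marker lists also differed between memory and naive resting cells. Higher in memory cells were 6 of 7 listed for NK cells, 5 of 7 for dendritic cells and 3 of 12 for monocytes, macrophages or neutrophils. None was lower, and the medians were 1.97, 1.14 and 0.43. The NK cell list includes Eomes and Gzma, and whether the CD8 T cells themselves express its genes was not tested. The part of these lists in the resting difference was not tested.

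After stimulation, none of the 50 genes differed between memory and naive cells by limma (smallest adjusted p = 0.0994), against 24.1% of all genes in either direction. An unadjusted p of limma under 0.05 was found for 5 of the 50, against 6687 of all 18403 genes. The differences ran from -0.32 to 0.32 with a median of 0.04. With the replicate number as a block, 2 genes were called higher and 2 lower in memory cells, against 2399 and 3312 of all 18403 genes. Stimulated arrays of the cell types did not overlap for 4 genes that were higher and 2 that were lower in memory cells, against 11.4% and 16.1% of all genes. Gnl3 measured 4.83, 4.84, 4.95 and 4.86 in naive and 4.88, 4.96, 5.01 and 5.08 in memory stimulated cells, and Ppan 6.36, 6.67, 6.51 and 6.55 against 6.40, 6.63, 6.92 and 6.53, both overlapping. Noc3l measured 3.23, 3.47, 3.50 and 3.28 against 3.43, 3.78, 3.79 and 3.75, with a difference of 0.32 ± 0.15. Grwd1 measured 4.29, 4.42, 4.46 and 4.28 against 4.19, 4.44, 4.53 and 4.45, overlapping. Its rise with stimulation was 3.62 ± 0.14 in naive and 4.20 ± 0.14 (18.4-fold) in memory cells.

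**Figure D3:**
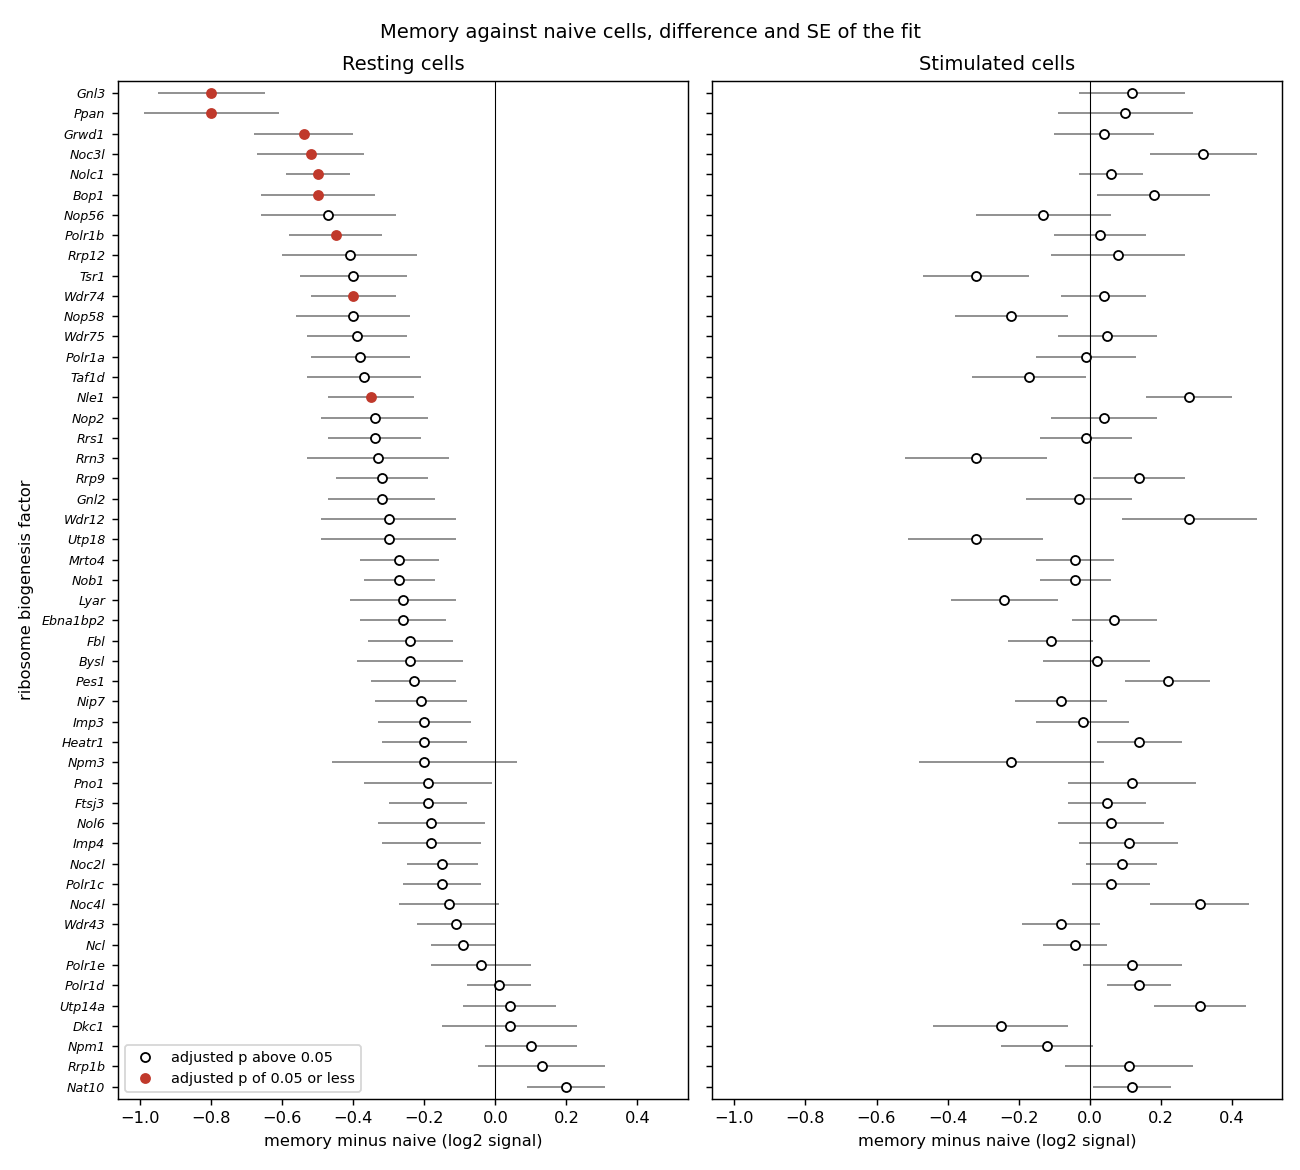
Memory minus naive difference (log2 signal, bars are the SE of the fit) of the 50 genes in resting (left) and stimulated cells (right), in the order of the resting difference. Filled points passed an adjusted p of 0.05: there are 9 at rest, all below 0, and none after stimulation.

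The response was larger in memory than in naive cells for 6 of the 50 genes by the interaction term (12%), against 5.61% of all genes, and smaller for none, against 14.1%. This comparison shares its resting arrays with the resting difference, and all 6 genes were among the 9 above. The counts rest on a single probe for each gene. A second probe of Utp18 was called smaller in memory cells (-1.17, adjusted p of limma over probes = 0.0437) and a second probe of Noc2l larger (0.61, 0.0095). Both were well above background on every array, and the probes used for these genes gave -0.02 and 0.23. Gnl3 rose by 2.99 ± 0.15 in naive and 3.91 ± 0.15 in memory cells (interaction 0.92 ± 0.22). Ppan rose by 3.19 ± 0.19 and 4.09 ± 0.19 (0.90 ± 0.26), and Noc3l by 3.48 ± 0.15 and 4.31 ± 0.15 (0.84 ± 0.21). Bop1 rose by 1.74 ± 0.16 and 2.42 ± 0.16 (0.68 ± 0.22). Its arrays read 2.41, 2.66, 2.61 and 3.08 in naive resting, 1.81, 2.23, 2.17 and 2.55 in memory resting, 4.40, 4.49, 4.34 and 4.50 in naive stimulated and 4.50, 4.54, 4.78 and 4.61 in memory stimulated cells. The resting ranges overlapped in part, and the stimulated ranges did not, with a gap at 4.50 smaller than the rounding.

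Nle1 (0.63 ± 0.16) and Nolc1 (0.56 ± 0.12) completed the 6. Their calls and those of Gnl3 and Noc3l held whichever array was left out, while the call of Bop1 was lost in 14 of the 16 omissions, with an adjusted p of limma of up to 0.0881, and that of Ppan in 2. The call of Nolc1 was lost with the mean over probes (0.44, adjusted p of limma = 0.0629), and its second probe gave 0.33 (adjusted p over probes = 0.338). The call of Nle1 was lost in the authors' table (0.42, 0.0734) and that of Bop1 without the filter on dim probes (0.68, 0.0612). Without memory resting replicate 4, 11 genes were called larger, against 1273 of all 18403 genes (1033 in the main fit). With the replicate number as a block, 10 genes were called larger, against 1697 of all 18403 genes. Across the 50 genes the memory and naive responses, which share no array, had a Pearson r of 0.955, a description over genes that are not independent of each other. The estimate of the memory response was the larger for 44 of the 50.

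The genes with an E-box had median changes of 2.78 in naive and 3.02 in memory cells (10 genes, 1.78 to 3.62 in naive cells), and the 33 genes with a window and no E-box 2.64 and 2.98 (1.35 to 4.68). The ranges overlap almost fully. The 15 genes with CCGGAAG had medians of 2.81 and 2.98 and the 28 without it 2.69 and 3.0. Myc itself, the best known E-box binding regulator of these genes, was lower in memory than naive cells at rest (-1.36, adjusted p of limma = 5.64e-07) and rose by 4.68 ± 0.11 in naive and 5.97 ± 0.11 in memory cells.

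Other genes of the pathway, from lists set by function, moved mostly the same way. Of 38 further small subunit factors, 37 rose in both cell types and none fell, with medians of 2.05 and 2.20. Nol10 (2.96 ± 0.15) and Rcl1 (2.93 ± 0.14) rose most in naive cells, Rrp36 rose least (0.30 ± 0.11), and Nol7 did not pass the test (0.05 ± 0.15). Of 36 further large subunit factors, 32 rose in both and none fell (medians 1.83 and 1.90). Rrp15 (3.16 ± 0.15) and Rpf2 (3.15 ± 0.16) rose most, and the late factors Nop53 (-0.09 ± 0.15) and Efl1, a GTPase that releases Eif6 (-0.41 ± 0.20), did not pass. Of 12 further snoRNP genes, 11 rose and 1 fell in both (medians 2.11 and 2.39). Znhit6 (3.22 ± 0.14) and Nhp2 (3.08 ± 0.18) rose most, Znhit3 less (1.46 ± 0.24), and Pih1d1, a subunit of the R2TP assembly chaperone, fell (-1.30 ± 0.14 in naive, -0.71 ± 0.14 in memory cells).

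Of 11 further RNA polymerase I genes, 8 rose in each cell type and 3 fell in naive and 2 in memory cells (medians 1.18 and 1.52). Polr2l (2.35 ± 0.13) and Polr2f (2.19 ± 0.13), subunits shared by the 3 nuclear polymerases, rose most. Taf1b (-0.80 ± 0.14) and Polr2e (-0.81 ± 0.15) fell in naive cells, Taf1b being a partner of Taf1d in SL1. Of 23 exosome and RNase MRP genes, 22 rose and 1 fell in both cell types (medians 1.26 and 1.64). Rpp25 was not well above background on any resting array. Against the lowest signal above background on each resting array, it rose at least 3.67-fold in naive and 6.41-fold in memory cells. The adjusted p of limma (2.14e-09 and 1.86e-10) belongs to the fit of its measured signals and not to these bounds. The nuclease Dis3 (2.58 ± 0.13) rose next, the core subunit Exosc8 least (0.36 ± 0.09), and the nuclease Xrn2 fell (-0.65 ± 0.14).

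Of 19 RNA polymerase III genes, which make the 5S ribosomal RNA and transfer RNA, 12 rose and 5 fell in naive and 15 rose and 3 fell in memory cells (medians 0.46 and 0.63). In naive cells Polr3d (2.94 ± 0.12) rose, while Polr3c (-1.15 ± 0.11) and Maf1, the repressor of this polymerase (-2.10 ± 0.16), fell. Of 20 genes of the Myc network and growth regulators, 6 rose and 6 fell in naive and 7 rose and 10 fell in memory cells. Eif4ebp1, a translation repressor under mTOR control, rose by 2.47 ± 0.31 in naive cells, and the Myc antagonists Mxd1 (-1.94 ± 0.29) and Mxd4 (-4.74 ± 0.36) fell.

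The proteins of the ribosome itself did not follow the factors that assemble it. Of 72 cytosolic ribosomal protein genes, 6 rose and 1 fell in naive and 21 rose and none fell in memory cells, with medians of 0.12 and 0.20 that turn to -0.12 and -0.11 under quantile scaling and to -0.15 and -0.19 in the authors' deposited table. Under quantile scaling 1 rose and 27 fell in naive cells. The median of the 50 factors was 2.27 under quantile scaling and 2.23 in the authors' table for naive cells. Of 78 mitochondrial ribosomal protein genes, 59 rose and 7 fell in naive and 66 rose and 5 fell in memory cells (medians 0.63 and 0.91). Many ribosomal protein genes have processed copies, and their probes are bright, so small changes of this list are uncertain. No test of the lists against each other was made.

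At rest, 3 of 23 exosome and RNase MRP genes, 4 of 38 small subunit, 1 of 12 snoRNP, 1 of 11 polymerase I and 3 of 19 polymerase III genes of these lists were lower in memory cells. None of the 36 further large subunit factors and none of the cytosolic or mitochondrial ribosomal protein genes passed as lower. Medians of these lists at rest ran from -0.24 for the further large subunit factors to -0.02 for both kinds of ribosomal protein.

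**Figure D4:**
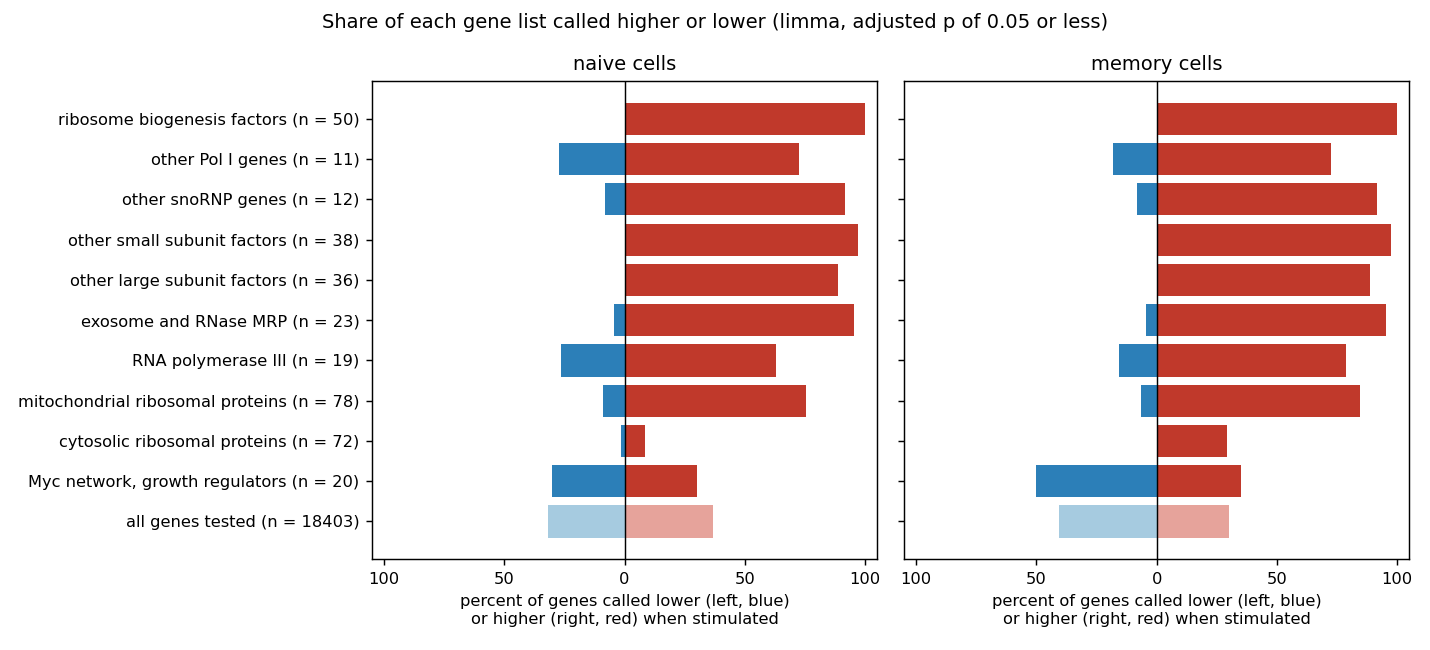
Share of each gene list called higher (right) or lower (left) with stimulation in naive and memory cells (limma, adjusted p of 0.05 or less), with all 18403 genes tested in the bottom bar. The 50 ribosome biogenesis factors reach 100% higher, and the 72 cytosolic ribosomal proteins have 6 higher and 1 lower in naive and 21 higher and none lower in memory cells; under quantile scaling 1 is higher and 27 are lower in naive and 2 higher and 22 lower in memory cells.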

How the data were processed

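RNA of 16 cultures (4 groups of 4) was hybridised to single-colour Agilent whole mouse genome arrays. Per the labels' protocols, the Cy3 label came from about 200 ng of total RNA amplified with an oligo-dT primer, which favours the 3′ ends of transcripts. Per the file headers, the authors used Feature Extraction 9.5.3.1 (Agilent), and the deposited intensity of a spot is its processed signal on a linear scale, background-corrected inside the array only. A second deposited table holds intensities the authors had processed further, by steps not given in the sources used here. It served as an alternative. Probe positions are those of build mm7 (NCBI35), per the file headers. Whether a probe lies in an exon or UTR was not analysed here.

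Intensities were converted to log2 and each array's 75th percentile over non-control spots was subtracted. Control spots and 59 to 116 outlier spots per array were left out, and spots of a probe were averaged. Testing a probe required signal well above background on 3 or more of 4 arrays in some group (27350 probes). Where a gene had more than 1 tested probe (6041 genes), the one with the highest mean level stood for it. Symbols came from RefSeq through accession, symbol or synonym for 32734 of 41174 probes. A limma model (version 3.58.1, R 4.3.3, lmFit then eBayes) with a mean for each group used all 16 arrays and left 12 residual degrees of freedom. Tests were two-sided and adjusted by Benjamini-Hochberg over 18403 genes, with a threshold of 0.05. Errors of changes are SE of the fit, with n = 4 arrays per group. The steps were tested on simulated data. The number of arrays limits the precision.

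The 50 genes, the role, pathway and marker lists, the motifs and the rule for named genes were chosen with earlier results of these data known. Array values are given for the 4 largest and 4 smallest changes in each response, the 4 largest called differences in each direction elsewhere and genes whose probes disagree. Of each pathway list, the 2 largest and 2 smallest changes in naive cells are named, and Myc; 1 gene of the RNA polymerase III list is not reported here. Alternatives were 2 background corrections, 2 scalings, the authors' table, 2 filters, the mean over probes, the replicate number as a block, only the groups compared, and leaving out each array. Python 3.11.15 and matplotlib 3.10.9 read the files and drew the figures.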

Additional observations from a re-analysis of the deposited data

Results flagged for a closer look

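For the genes with the largest and smallest changes or a called difference, and for the median of the 50 genes, 72 groups of 4 arrays were examined. Of these, 4 held an array far from the others, where chance gives about 1 in 20. Npm3 read 4.08 on naive resting replicate 4, with the nearest other array at 3.01. Nle1 read 3.79 on naive stimulated replicate 1, with the nearest at 3.43. Noc3l read 3.43 on memory stimulated replicate 1, with the nearest at 3.75. Rrp1b read 3.37 on memory stimulated replicate 3, with the nearest at 3.65.

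The response differed between memory and naive cells for 6 genes by limma's interaction term, each larger in memory cells. The difference was 0.92 for Gnl3, 0.90 for Ppan, 0.84 for Noc3l, 0.68 for Bop1, 0.63 for Nle1 and 0.56 for Nolc1.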

How the results depend on the processing

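All 50 genes remained called higher in both responses under each alternative and each omission of an array, except under normexp background correction, where 48 did in memory cells (Npm1 0.44, Npm3 0.79). That correction failed on 3 arrays (naive stimulated replicate 1, memory stimulated replicates 1 and 2). It was therefore repeated with those fits repaired, an alternative chosen after seeing the data. The repaired version called 50 genes higher in both responses, 12 lower at rest, none after stimulation and 8 higher in the interaction, with medians of 2.61, 2.94, -0.23, 0.07 and 0.25 in the 5 comparisons. Over all 18403 genes the repaired version called 1787 lower at rest and 1192 higher in the interaction. The values under normexp that follow are those of the failed correction. The median change over the 50 in naive cells was 2.49 under normexp, 2.27 under quantile scaling and 2.23 in the authors' table. In memory cells it was 2.39, 2.46 and 2.43 in that order, and 2.80 with the mean over probes. The median of all genes in the naive response moved from 0.11 to 0.38 under normexp and -0.01 in the authors' table, and in the memory response from -0.21 to 0.66 and -0.10. The resting count of genes lower was 0 under normexp, 14 in the authors' table (with 2 higher) and 3 with only the groups compared. Over all genes the counts lower were 103, 2203 (with 2223 higher) and 958 in that order. Under normexp the stimulated median was -0.36, the interaction median -0.17 and the interaction count 0 (31 of all genes higher). In stimulated cells 3 genes were lower in the authors' table (2187 of all genes) and 1 with the mean over probes (2683). With only the groups compared, 1 was higher (1680 of all genes). The interaction had 1 gene lower in the authors' table (1976 of all genes). Leaving out 1 array gave 4 to 20 genes lower at rest, 0 to 1 higher after stimulation and 4 to 11 higher in the interaction. Over all 18403 genes these counts ran from 851 to 1926, from 1367 to 2106 and from 724 to 1273. The cause of these shifts was not tested.

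The labels do not say that a replicate number marks 1 occasion of sorting and culture, and not every pair of same-numbered arrays deviated together. Their deviations correlated at -0.211 to 0.585, and 16 of 24 pairs were above 0.1, although 13 of 16 arrays correlated best with their own number. The median was 0.161, against -0.071 for arrays of different numbers. Naive and memory resting arrays of the same number correlated at 0.376, 0.337, 0.303 and 0.585, and stimulated ones at 0.486, 0.193, 0.054 and 0.333. Same-numbered arrays also held the same position on their slides, so any effect of occasion cannot be told apart from position. The main fit does not use the replicate numbers. With the replicate number as a block all 50 genes rose in both responses, 19 were lower at rest, 2 higher and 2 lower after stimulation and 10 higher in the interaction. The slide as a block was not run, since each slide held 1 group.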
